A study of Mus musculus with 4 samples.

Results

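The 10 mouse genes described here encode enzymes of choline lipid breakdown and sphingomyelin turnover, together with Pld3, a relative of the phospholipases D: Pld1, Pld2, Pld3, Smpd1, Smpd2, Smpd3, Sgms1, Sgms2, Pnpla6 and Gpcpd1. They were taken by name from 21938 annotated protein-coding genes, and a region was counted for a gene when it overlapped the gene's span or the 5 kb on either side. In this way 50 of the 45855 regions in the deposited list were found, at 9 of the 10 genes. The regions come from chromatin immunoprecipitation and sequencing (ChIP-seq) of H3K9ac, the acetylation of lysine 9 of histone H3 found at active promoters and enhancers, in HT22, an immortalised cell line of mouse hippocampal neurons. Cells had been cultured for 48 h with choline chloride at 70 µM (SUP, the supplemented cells) or at 5 µM (CON, the control cells), in both cases in high-glucose medium with serum and antibiotics. There were 2 libraries of H3K9ac ChIP DNA and 2 of input DNA, and the labels do not tie a library to a choline level, which leaves no more than 1 ChIP library per level.

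The list holds regions that the authors' comparison assigned to 1 condition only. Condition 2 is read here as 70 µM and condition 1 as 5 µM, because the name of the comparison puts 5 before 70, and each direction below depends on this reading. Regions acetylated alike at both levels are not listed, so a gene without a region may still carry H3K9ac. Every score given below is the authors' own value for that region in the authors' deposited table; the column has no name there, and strong and weak are used only for high and low scores. Over the list, 45495 regions (99.2%) were assigned to 70 µM and 360 (0.785%) to 5 µM. Read depth and the scaling of the libraries are unknown, and their part in this split was not tested. Neither level has replicates, so error between cultures cannot be estimated and no p-value is given. Of the markers checked, 3 of 8 genes of mature neurons (Eno2, Rbfox3 and Syn1) had a region within 1 kb of an annotated start, as did 4 of 4 for fibroblasts, 2 of 4 for astrocytes, 1 of 4 for oligodendrocytes and 1 of 4 for microglia, against 39.5% of all protein-coding genes; for HT22 as a neuronal line, Map2, Tubb3, Snap25, Nefl and Slc17a7 had none.

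Phosphatidylcholine and sphingomyelin are the main choline lipids of animal membranes. Phospholipase D splits phosphatidylcholine into phosphatidic acid and free choline. Sphingomyelinases cut sphingomyelin into ceramide and phosphocholine, and sphingomyelin synthases run the other way, passing phosphocholine from phosphatidylcholine to ceramide and leaving diacylglycerol. A slower route removes both acyl chains of phosphatidylcholine to give glycerophosphocholine, from which a phosphodiesterase then frees choline. In brain tissue these reactions supply second messengers and take part in the turnover of membrane lipids.

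To show what the regions look like in sequence, 7 of them are printed from the RefSeq genome GRCm38.p6 (the same build as mm10) on the strand of the gene, 5′ to 3′, in lower case with each CpG pair in capitals. The first 3 lie at or next to a start and differ in CpG content. They are the region in intron 1 of Gpcpd1 (chr2:132577605-132577823, minus strand, score 5.02, 19 CpG), the region in the first coding exon of Smpd1 (chr7:105554540-105554775, plus strand, score 6.50, 8 CpG) and the region just upstream of the inner start of Smpd3 (chr8:106280983-106281269, minus strand, score 11.8, 5 CpG).
Gpcpd1: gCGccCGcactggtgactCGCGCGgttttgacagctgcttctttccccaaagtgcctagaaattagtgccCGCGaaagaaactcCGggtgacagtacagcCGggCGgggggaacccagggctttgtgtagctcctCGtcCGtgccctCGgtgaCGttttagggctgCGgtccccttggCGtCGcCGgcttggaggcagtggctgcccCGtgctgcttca
Smpd1: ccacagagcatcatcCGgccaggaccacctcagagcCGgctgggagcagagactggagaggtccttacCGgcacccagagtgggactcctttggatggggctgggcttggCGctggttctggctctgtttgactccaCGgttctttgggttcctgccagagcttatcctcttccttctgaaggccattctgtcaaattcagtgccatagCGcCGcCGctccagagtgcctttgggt
Smpd3: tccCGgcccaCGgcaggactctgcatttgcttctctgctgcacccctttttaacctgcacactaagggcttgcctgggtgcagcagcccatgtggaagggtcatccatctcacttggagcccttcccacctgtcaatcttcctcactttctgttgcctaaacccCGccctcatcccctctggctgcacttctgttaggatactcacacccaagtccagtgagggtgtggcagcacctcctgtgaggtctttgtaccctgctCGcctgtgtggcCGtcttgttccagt

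The other 4 are the strongest region of Pld2 (chr11:70554688-70554883, plus strand, score 22.9, 2 CpG), the strongest of Pld1 (chr3:27960380-27960523, plus strand, score 22.8, 0 CpG), the strongest of Sgms2 (chr3:131332660-131332874, minus strand, score 22.7, 7 CpG) and a weak region in a run of 4 in Sgms2 (chr3:131364918-131365148, minus strand, score 4.10, 10 CpG). Among these sequences, the one with the most CpG pairs scored 5.02 and the one with none 22.8. The strongest of Sgms2, with 7 CpG pairs, scored 22.7. The sequences were picked by position, CpG content or score, so no relation of CpG content to score can be read from them.
Pld2: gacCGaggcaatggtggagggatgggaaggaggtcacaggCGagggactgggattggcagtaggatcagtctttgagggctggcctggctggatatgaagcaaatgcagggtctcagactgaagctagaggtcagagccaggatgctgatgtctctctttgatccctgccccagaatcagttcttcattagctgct
Pld1: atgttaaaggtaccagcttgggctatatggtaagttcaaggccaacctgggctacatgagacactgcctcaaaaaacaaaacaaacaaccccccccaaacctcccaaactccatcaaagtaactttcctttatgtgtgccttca
Sgms2, strongest: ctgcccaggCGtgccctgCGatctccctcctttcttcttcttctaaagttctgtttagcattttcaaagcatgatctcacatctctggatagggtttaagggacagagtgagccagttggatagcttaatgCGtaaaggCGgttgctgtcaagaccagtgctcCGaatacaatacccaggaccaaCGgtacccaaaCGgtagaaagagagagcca
Sgms2, in the run of 4: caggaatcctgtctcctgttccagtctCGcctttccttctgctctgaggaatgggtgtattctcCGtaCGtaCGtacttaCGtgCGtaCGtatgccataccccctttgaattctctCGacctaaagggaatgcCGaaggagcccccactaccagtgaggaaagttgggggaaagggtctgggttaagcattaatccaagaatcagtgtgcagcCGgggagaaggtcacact

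All 50 regions were assigned to 70 µM and 0 to 5 µM, against 0.785% of the whole list at 5 µM. If the regions were independent, a count of 0 among 50 would allow a share of up to 6%, which lies above that value. This limit covers counting only. The regions come from the same libraries and some lie in runs within a gene, so they are not independent and the limit is a rough guide. Within 1 kb of an annotated start, 8 of the 10 genes had a 70 µM region, against 39.2% of all protein-coding genes, and 0 had a 5 µM region, against 0.88%. Within the span plus 5 kb, 9 of the 10 had a 70 µM region, against 60.7% of protein-coding genes, and 0 had a 5 µM region, against 1.75%. The 10 genes offer more room for a region than most: their median span was 43.8 kb and their median number of distinct annotated starts 8, against 17.4 kb and 3 over all protein-coding genes, and the part of these lengths in the counts was not tested. At the 5′-most start alone, 7 of the 10 had a 70 µM region, against 32.2% of protein-coding genes. The closest 5 µM regions lay 25054 bp from Pld3 (score 18.9) and 63281 bp from Smpd1 (score 6.10).

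By place, 20 regions lay within 1 kb of an annotated start of their gene, 28 inside the gene away from any start and 2 in the flanks. By midpoint, 41 fell in introns, 1 in a coding exon, 2 in untranslated exon sequence, 4 upstream and 2 downstream of the gene. The farthest region still counted at a start ended 897 bp from it (Pld3, score 5.72), and the nearest not counted was 1469 bp away (Pld1, score 6.81). At the outer limit, the farthest region counted lay 2850 bp from its gene (Pld3, score 8.75), and the nearest left out 8071 bp from its gene (Smpd2, score 4.08).

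**Figure D1:**
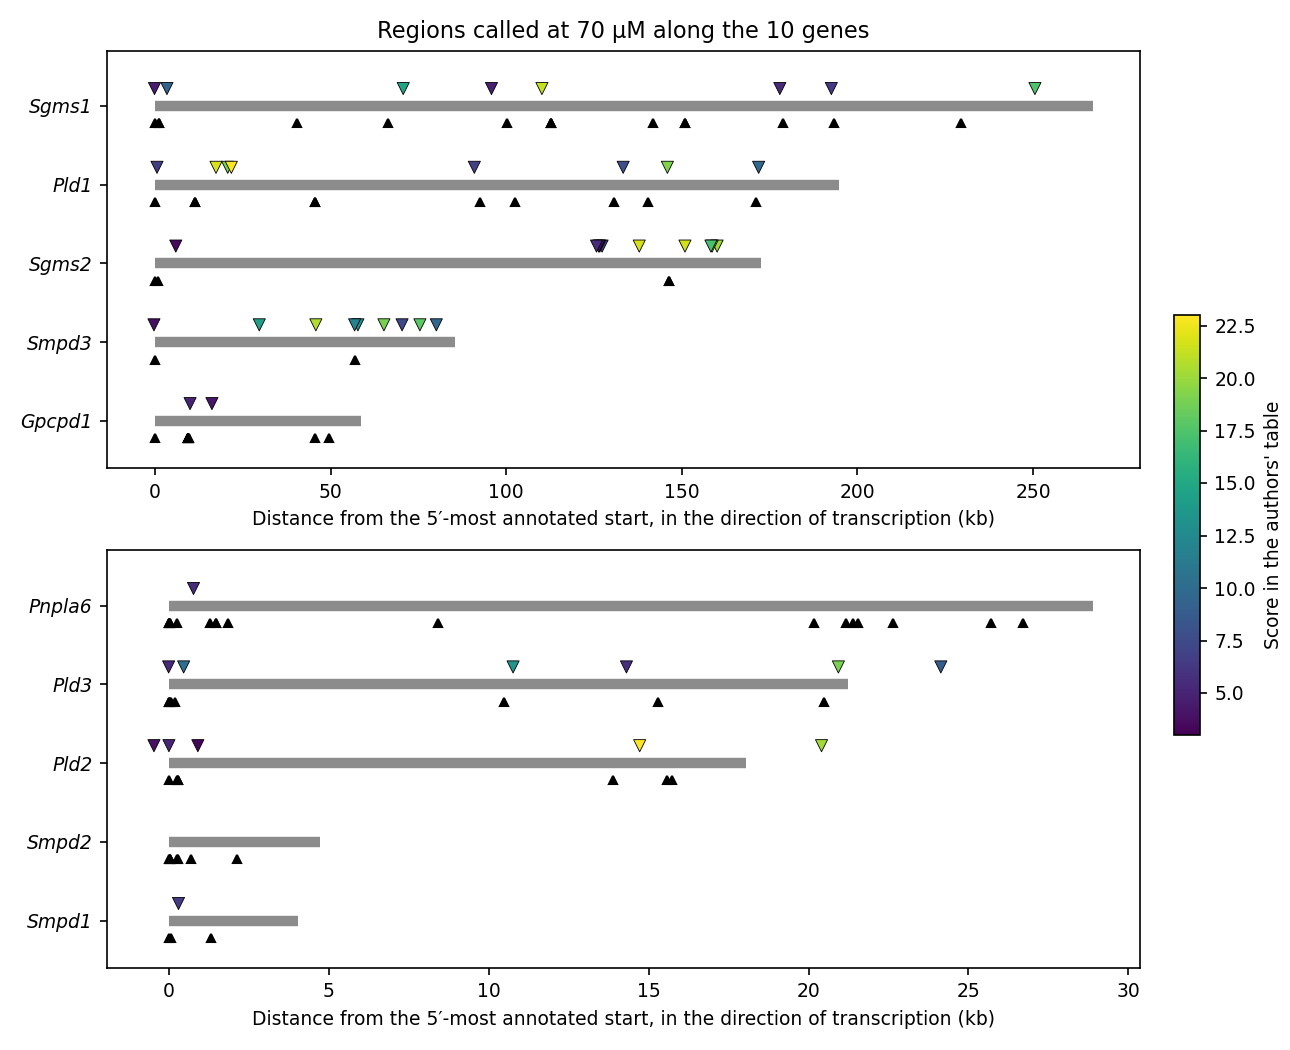
Position of the 50 regions (downward triangles, coloured by the authors' score) along each gene (grey bar), in kb from the 5′-most annotated start in the direction of transcription, with annotated starts as upward black triangles and separate scales for long genes (above) and short genes (below). Regions at the 5′-most starts are dark (scores 3.29 to 10.2), and the brightest triangles lie inside or beyond the genes.

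Among the phospholipase D genes, Pld1, Pld2 and Pld3 each held regions with scores of 19.01 or more away from their 5′-most start and only weaker ones at it. Pld1 encodes a signalling phospholipase D of vesicle traffic and secretion (chromosome 3, 27938695 to 28133362, plus strand). It carried 8 regions, of which the one at its 5′-most start scored 6.52 and lay in intron 1 of transcript Pld1-202. In intron 2 of the same transcript, 17398 to 21756 bp from the 5′-most start, followed 3 regions with scores of 21.8, 19.01 and 22.8. Of the strongest, printed above, 63.2% was repeat-masked. The remaining 4 lay farther into the gene, at scores of 6.81, 7.85, 19.1 and 9.69, and the last of them was 755 bp from the inner start of Pld1-205. Those scoring 7.85 and 9.69 were 58.1% and 58.3% repeat-masked. The high scores of Pld1 thus fell into 1 stretch of intron 2 and 1 region in intron 16 of Pld1-203.

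Pld2 encodes the other signalling phospholipase D, active mainly at the plasma membrane (chromosome 11, 70540064 to 70558110, plus strand). At its 5′-most start a run of 3 regions covered 1505 bp, with scores of 3.90, 5.07 and 3.29. The middle one, at 70539969 to 70540165, spanned the start itself and had 20 CpG pairs and 71.1% G and C. The strongest region of all 50 was the fourth in Pld2, at a score of 22.9: it lay in intron 18 of Pld2-203, reached 22 bases of coding sequence and had its nearest annotated start, that of the retained-intron transcript Pld2-207, 728 bp away. Another region, 2287 bp beyond the gene, scored 20.2, and 89.8% of it was repeat-masked. The pseudogene Gm10418, on the opposite strand, also starts within 1 kb of the first 3 regions, which cannot be assigned to one of the genes.

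Pld3 encodes a lysosomal member of the family, known as an exonuclease and not for release of choline (chromosome 7, 27532000 to 27553218, minus strand). It had 6 regions in a short gene, 19.2 per 100 kb of span and flanks, and 7.93% of protein-coding genes were as dense. The pair at its 5′-most start scored 5.26 and 10.2 and lay also within 1 kb of a start of 2310022A10Rik, the protein-coding neighbour read in the other direction. Farther in, regions scored 13.4 in intron 3 and 5.72 in intron 9 of Pld3-201, and a region at the last exon, number 14, scored 19.01. That score is the most common exact value of the list, shared by 2552 regions, and it recurs at 1 region of Pld1 and 1 of Smpd3. The region in the flank, with a score of 8.75, lay within the span of Hipk4, a protein kinase gene.

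The sphingomyelinase genes ranged from 0 to 9 regions. Smpd1 encodes the acid sphingomyelinase of lysosomes, whose loss causes Niemann-Pick disease in humans (chromosome 7, 105554360 to 105558389, plus strand). Its single region, printed above, lay wholly in the coding part of exon 1 with a score of 6.50, close to the median of all 70 µM regions, 6.63. Smpd2, which encodes a neutral sphingomyelinase of internal membranes, had no region in its span plus 5 kb (chromosome 10, 41485642 to 41490369, minus strand). The nearest on that side were 2 regions with scores of 4.08 and 4.22 at the starts of Mical1.

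Smpd3 encodes the neutral sphingomyelinase of Golgi and plasma membrane that is best known in neurons and in the release of small vesicles (chromosome 8, 106252548 to 106337988, minus strand). It had 9 regions, and 2.94% of protein-coding genes had as many, but 21.0% had as many per 100 kb. The region upstream of the outer start, that of Smpd3-201, scored 3.86, the lowest of the gene. At the inner start, that of Smpd3-202, regions scored 11.8 and 13.2, so the regions at the inner start stood higher than that at the outer one. The 2 regions in intron 1 of Smpd3-201 scored 14.2 and 20.6, and the remaining 4, in introns 2, 3 and 5, scored 19.01, 7.32, 17.9 and 9.59. The long non-coding RNA gene Gm26786 covers Smpd3 on the same strand and overlapped all 9 regions, so that their assignment to Smpd3 rests on position alone.

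The 2 sphingomyelin synthase genes differed in where their regions lay. They also differed in distinct annotated starts, 15 for Sgms1 and 4 for Sgms2, and the part of this in the placing of regions was not tested. Sgms1, which encodes the Golgi enzyme, had 8 regions over the longest gene of the set (chromosome 19, 32122727 to 32389714, minus strand), 2.89 per 100 kb. The region at its 5′-most start, at 32389710 to 32389937, had 12 CpG pairs and a score of 4.50, and the divergent long non-coding RNA 2700046G09Rik starts within 1 kb of it. Inner starts in intron 5 of Sgms1-201 had regions with scores of 6.29 and 5.35. Regions away from starts scored 9.20, 14.7, 4.77, 21.2 and 17.5 in the order of transcription, 4 of the 5 above the highest at a start.

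Sgms2, which encodes the plasma membrane enzyme, had 10 regions, the most of the set, and 0 of them within 1 kb of an annotated start (chromosome 3, 131318985 to 131491411, minus strand). Only 2.12% of protein-coding genes had as many regions, but 34.5% had as many per 100 kb, since the gene is long. Its regions formed a weak and a strong group by position. A run of 4 regions over 1783 bp in intron 1 of Sgms2-203, 19057 to 20642 bp before the inner start of Sgms2-202, scored 7.28, 4.67, 4.10 and 5.52, and a single region near the outer starts scored 3.41. The 5 regions closer to and past the inner starts scored 20.1, 22.7, 17.2, 21.6 and 21.7, and 3 of them formed a run over 1936 bp in intron 3 of Sgms2-201. The 2 groups of scores do not overlap; the groups were seen in the data and not set beforehand.

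The glycerophosphocholine route had few regions, all with scores below the median of all 70 µM regions. Pnpla6 encodes neuropathy target esterase, which strips acyl chains from phosphatidylcholine and lysophosphatidylcholine (chromosome 8, 3515384 to 3544267, plus strand). It has 18 distinct annotated starts, and its single region lay near the outer ones, in intron 1 of Pnpla6-212 with a score of 5.48. Gpcpd1 encodes the phosphodiesterase that splits glycerophosphocholine into choline and glycerol phosphate (chromosome 2, 132529082 to 132587729, minus strand). Its region in intron 1 of Gpcpd1-202, printed above, scored 5.02, and a region in intron 2 scored 4.14. None of these 3 regions reached the median of all 70 µM regions, 6.63. Those of Pnpla6 and Gpcpd1 within 1 kb of a start scored slightly above the median of 70 µM regions at protein-coding starts, 4.99. Of the regions of Gpcpd1, 0 lay at its 5′-most start, that of Gpcpd1-203 at 132587729. The midpoint of the printed one was 10015 bp from that start, and its nearest annotated start, that of Gpcpd1-201, was 310 bp away. Most annotated transcripts of the gene, Gpcpd1-202 among them, start between 132578133 and 132578248.

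**Figure D2:**
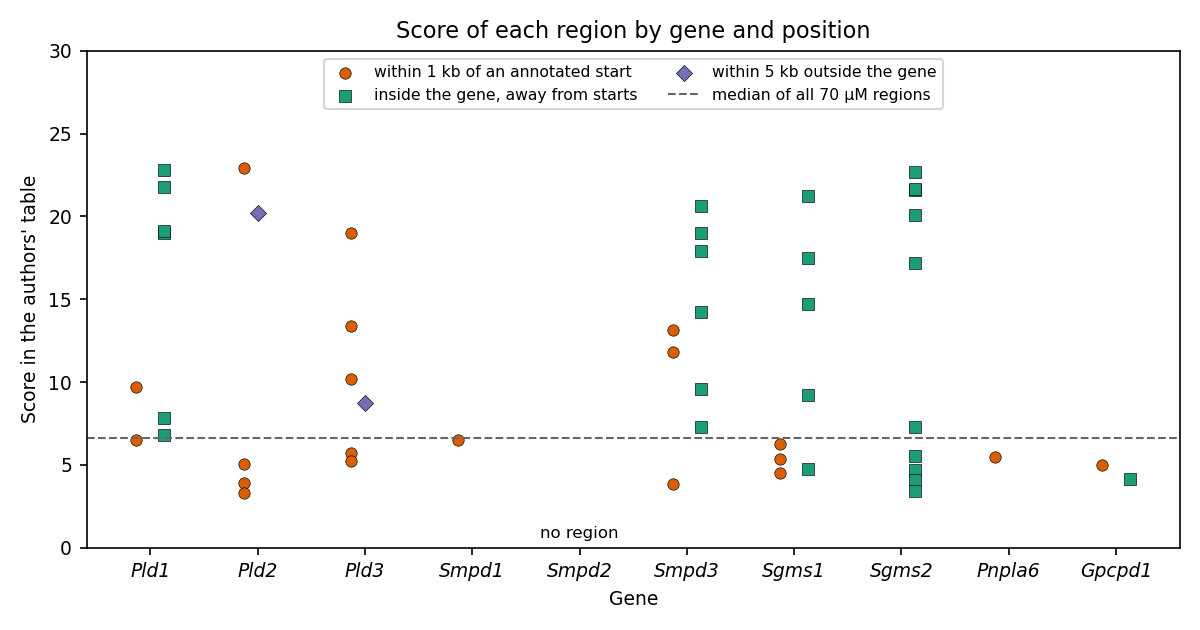
Authors' score of each region (vertical axis) by gene, with circles for regions within 1 kb of an annotated start, squares for those inside the gene away from starts, diamonds for those in the 5 kb flanks, and a dashed line at the median of all 70 µM regions (6.63). Regions of Smpd1, Pnpla6 and Gpcpd1 lie below the line, and those of Pld1, Pld2, Smpd3, Sgms1 and Sgms2 reach 20.6 to 22.9.

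Regions were thus spread unevenly over the set: 6 genes held 46 regions and the other 4 held 4. Counted per length, the order changed. The density was 17.8 and 19.2 regions per 100 kb for Pld2 and Pld3, 9.43 for Smpd3, 7.13 for Smpd1 with its single region, 5.48 for Sgms2, 3.91 for Pld1, and 2.57 to 2.91 for Pnpla6, Sgms1 and Gpcpd1. The median over the 10 genes was 4.70 per 100 kb, against 2.40 over all protein-coding genes. By number, the median was 5.5 regions per gene, against 1.0 over all protein-coding genes.

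**Figure D3:**
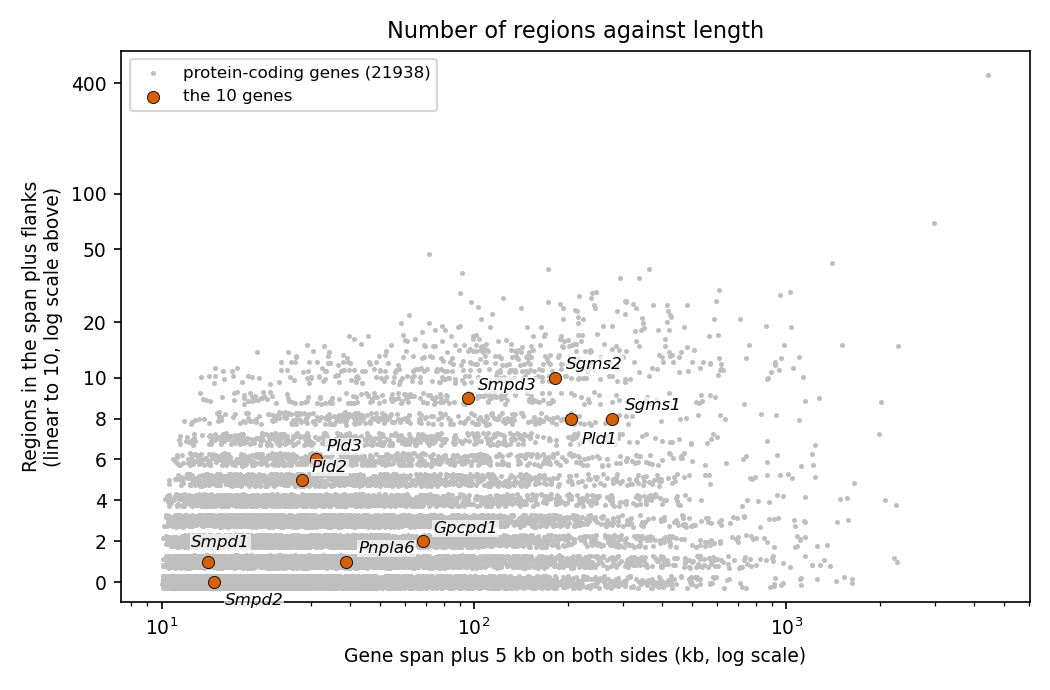
Number of regions (vertical axis, linear to 10 and logarithmic above) against gene span plus 5 kb on both sides (kb, log scale) for the 10 genes (orange, labelled) and all 21938 protein-coding genes (grey, shifted slightly up or down so that points do not hide each other). Sgms2 with 10 regions and Smpd3 with 9 stand highest of the set, and Smpd2 is at 0.

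Scores differed by position. The 20 regions at starts had a median score of 6.01, and the 30 away from starts 16.0. Over the list, 70 µM regions at starts of protein-coding genes had a median of 4.99 and those away from such starts 8.70. A score of 10 or more was found at 6 of the 20 and 17 of the 30, which is 30% and 56.7%, against 14.4% and 45.7% of the 70 µM regions of the list in those places. At the 5′-most starts the 10 regions scored between 3.29 and 10.2, with a median of 5.16. Of the 6 start regions at 10 or more, only that of Pld3 with 10.2 was among these, and the others lay at inner starts. How a region's score depends on read depth or on the level of H3K9ac in the control cells was not tested, since the list gives neither.

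In base composition the regions at starts had a median of 55.5% G and C and 2.21 CpG pairs per 100 bp, against 45.7% and 0.637 for those away from starts. The 70 µM regions of the list differed in the same direction. Their medians were 54.7% and 2.97 at protein-coding starts, and 48.9% and 1.02 away from them. The 5 regions with more than 5 CpG pairs per 100 bp, at Pld2, Pld3 (2 regions), Sgms1 and Gpcpd1, scored between 4.50 and 8.75, and the other 45 between 3.29 and 22.9. Over the list, the 5074 such 70 µM regions had a median score of 4.78, against 7.40 for the others. Across the 50 regions, score and CpG density had a Pearson correlation of -0.31 and a Spearman correlation of -0.28, and across the 45495 70 µM regions of the list -0.25 and -0.23. These are descriptions of weak relations between regions that come from the same libraries.

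**Figure D4:**
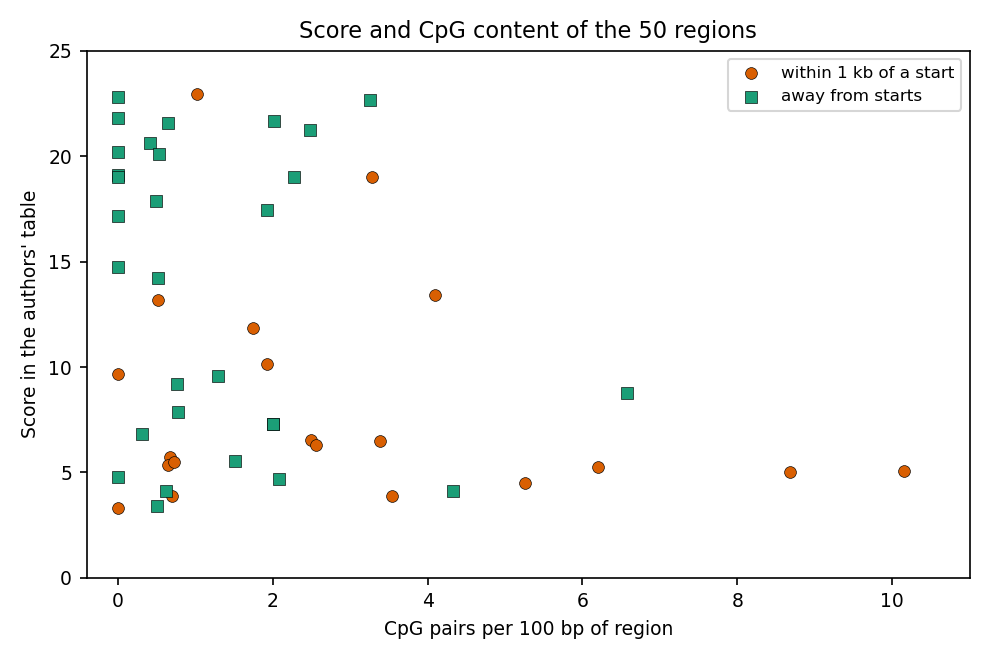
Authors' score (vertical axis) against CpG pairs per 100 bp (horizontal axis) for the 50 regions, with circles for regions within 1 kb of an annotated start and squares for the others. The 5 regions beyond 5 CpG pairs per 100 bp score at most 8.75, while regions with few CpG pairs span the whole range.

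Short motifs were searched on both strands of the central 120 bp of each region. The GC box GGGCGG was found in 4 of the 50 regions (8%), against 6.03% of the list. All 4 were at starts (Gpcpd1, Pld2, Pld3 and Smpd3), and the share in list regions at starts was not computed. CCAAT was found in 8 (16%), against 13.8% of the list. The half-site AGAACA of glucocorticoid receptor elements, looked for because the title of the series names the receptor gene, was in 4 regions (8%), at Sgms1 (2), Sgms2 and Smpd3, against 9.19%. The AP-1 motif TGANTCA was in 1 region, at Pld2, the ETS motif CCGGAAG in 1, at Pld3, and the E-box CACGTG in 0, against 3.33%, 1.14% and 1.70% of the list. In the RefSeq promoter windows (250 bases before to 50 after a start), which cover 8 of the 10 genes and not Smpd3 or Gpcpd1, the GC box was in 11 of 20 windows, against 35.7% of all 32851 windows. The other motifs were in 7 windows for CCAAT, 4 for TGANTCA, 1 for CCGGAAG, 2 for CACGTG and 3 for AGAACA, against 37.4%, 7.81%, 8.86%, 7.15% and 18.97% of all windows. The 20 windows belong to 8 genes, so they are not independent and their counts are not counts of genes. Matches of different motifs were counted separately, also where they share bases, and a match says only that the letters are present.

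The other genes of phospholipid and sphingolipid turnover, 44 in number, had a region at a start in 19 cases (43.2%), against 39.5% of protein-coding genes with a region of either level, and all of these were at 70 µM. The top score at a start had a median of 8.10 for the 8 genes of the set with such a region, against 5.81 for these 19 and 5.68 for all protein-coding genes with one. A top score is a maximum and can rise with the number of starts. The median number of distinct starts was 8 for the set, 4 for the 44 genes and 3 for all protein-coding genes. Its part in these shares and top scores was not tested. At the 5′-most starts the regions of the set had a median score of 5.16. The highest of the 19 were at Acer2, an alkaline ceramidase gene (9.27), Cers2, which encodes the ceramide synthase of very long acyl chains (9.01), Sgpp1, a sphingosine-1-phosphate phosphatase gene (8.73), the sphingosine kinase gene Sphk1 (8.30), the sphingomyelinase gene Smpd5 (7.90) and the second sphingosine kinase gene, Sphk2 (6.69). Of the set, the top start scores of Pld2 (22.9), Pld3 (19.01), Smpd3 (13.2) and Pld1 (9.69) lay above those of all 6 genes, each near an inner start, which for Pld2 and Pld3 was that of a retained-intron transcript. The top start scores of Smpd1 (6.50), Sgms1 (6.29), Pnpla6 (5.48) and Gpcpd1 (5.02) lay below those of all 6. The first 4 in alphabetical order without a start region were the ceramidase genes Acer1, Acer3 and Asah2 and the ceramide synthase gene Cers1. Of the 44 genes, 36 had a region in the span plus 5 kb (81.8%), against 90% of the set and 60.8% of all protein-coding genes. Their median was 2.42 regions per 100 kb, against 4.70 for the set and 2.40 for all protein-coding genes.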

How the data were processed

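HT22 cells at 2 choline levels gave 2 H3K9ac ChIP and 2 input libraries. The submitters' processing notes name the build mm10 and the tools Bowtie 1.0.0, MACS2 and CASAVA 1.8. Per the series' design text, peaks were called against input and differences between the levels with the bdgdiff function of MACS2. The deposited file holds, per the file headers, regions unique to either condition, each with a score from the authors, whose column is unnamed. The sources used here do not state the scaling or pooling of libraries.

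Region positions (1-based) were set against GENCODE M21 and RefSeq GRCm38.p6, both of the mm10 build; no region ran past a chromosome end. A region was at a start when it shared a base with a window reaching 1000 bp from an annotated transcript start in both directions, and was counted for a gene when it shared a base with the span plus 5000 bp. The values are counts, shares and medians, with no test. The counting was checked with 200 planted regions on 21938 genes, and 0 genes had a wrong count. Work used Python 3.11.15, numpy 2.4.6, scipy 1.17.1, pandas 2.3.3 and matplotlib 3.10.9.

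The genes, the list of 44 other genes and the markers were chosen with earlier results of these data known. Named from that list were the 6 with the highest-scoring start region and the first 4 without one; protein-coding neighbours were named when they start within 1 kb of a region counted. Hipk4, Mical1, the pseudogene and the long non-coding RNAs fall outside this rule and were named after their positions were seen. Alternatives were windows of 500 and 2500 bp, flanks of 0 and 10 kb, midpoints, scores at or above the median of the list, the list without its most common score and the 5′-most start only. Added after seeing the data were the starts of protein-coding transcripts and of RefSeq.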

Additional observations from a re-analysis of the deposited data

How the results depend on the processing

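Of 43 recomputed summary counts, 35 stayed within 1.5 times the reported value, and 8 were lower by more than that. With only regions at or above the median score of the list (6.64), genes of the set with a start region numbered 4, in place of 8, regions at their starts 7 in place of 20, regions in the spans plus flanks 31 in place of 50, and regions inside the genes 29 in place of 46. In the same setting 3213 protein-coding genes (14.6%) and 6 of the 44 other lipid genes had a start region. Regions at the starts of the set numbered 13 with windows of 500 bp and 10 with the 5′-most start only, and 8 and 7 of the genes then still had one, against 7125 (32.5%) and 7140 (32.5%) of protein-coding genes. With a flank of 10 kb all 10 genes had a region, the 2 added being those at Mical1. The share of protein-coding genes was not computed at that flank, and at 5 kb it was 60.8%. Starts of protein-coding transcripts and of RefSeq, chosen after seeing the data, left 8 genes with 17 and 14 start regions. In the first of these settings 8058 protein-coding genes (36.7%) and 18 of the 44 other lipid genes had a start region. For RefSeq starts these shares were not computed. The smaller windows and the higher score limit can only remove regions by construction. Of 70 counts per gene, 18 moved by over 1.5 times, 16 of them lower. No paired analysis was possible because the list has no value per library, and for the same reason no library could be left out. Depth is unknown, so absence of a region is not absence of a difference.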
